A study of Mus musculus with 4 samples.

Results

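The aquaporins are membrane channels for water, and some of them, the aquaglyceroporins, also pass glycerol and other small uncharged solutes. Expression of 10 aquaporin genes, Aqp1 to Aqp9 and Aqp11, was followed in mouse Ly6C-high monocytes exposed to all-trans retinoic acid (RA). These genes were taken by symbol from the 22180 genes that a probe set with a single gene symbol represents on the array. The set was selected on measured values in part: Aqp3 was chosen by its difference between treatments, already known to be lower with RA in these data, and Aqp9 was chosen for its place beside Aldh1a2, a gene known to be higher. The difference between treatments in the 10 genes is therefore described without a test. Whether a gene lay past the threshold used for all genes is given only to place it among them.

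Bone marrow of 3 mice was pooled, Ly6C-high monocytes were sorted from it, and both groups were cultured for 24 h in GM-CSF (20 ng per ml) plus interleukin 4 (20 ng per ml), a mixture that drives monocytes toward dendritic cells. The RA group received 100 nM RA at the start of culture (2 arrays), and the control group received the solvent DMSO (2 arrays). The labels used here do not state the strain, age or sex of the mice, nor whether replicates came from separate cultures or pools, so a p-value covers no more than the spread between these 4 arrays, part or all of which could be technical. RNA was read on 1-colour whole-transcript arrays, and all values are log2 of the deposited intensity unless stated otherwise. Array medians lay between 80.0 and 81.8 in linear intensity, and the number of arrays limits the precision. In a bulk culture, fewer cells of a type and less RNA per cell cannot be told apart. Detection calls are not in the table. Dim levels were judged by the 95th percentile of mean log2 intensity over 1405 probe sets of olfactory and vomeronasal receptors, which was 6.35, called the dim level here. All 11 measured monocyte marker genes lay above it in at least 1 group. Their median difference was 0.16, and their summed linear intensity was 35547.8 to 36791.9 on RA arrays and 33304.3 to 35440.1 on DMSO arrays. Of the 11 genes, 9 did not pass. The highest differences were those of Itgam (0.66 ± 0.12, SE, limma adjusted p = 0.0893) and Fcgr1 (0.60 ± 0.12, adjusted p = 0.116), among these 9. The transcription factor gene Spi1 (log2 difference -0.66 ± 0.09, SE, limma adjusted p = 0.0438) and the leukocyte phosphatase gene Ptprc (-0.58 ± 0.08, adjusted p = 0.0438) fell. Neither passed with any 1 array left out.

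An aquaporin monomer is a pore through which molecules pass in single file along their gradient, so the amount of channel in a membrane sets how fast water or glycerol can cross it. Aqp3, Aqp7 and Aqp9 are the aquaglyceroporins of the set. Aqp3 also carries hydrogen peroxide and is known from skin, kidney and, in humans, immature dendritic cells, where aquaporins have been tied to the concentration of fluid taken up by macropinocytosis. RA acts through nuclear receptors that pair with retinoid X receptors on repeated short sites in DNA.

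The promoters of the pair of aquaporin genes that stood apart, and that of Aldh1a2, are shown because the genes moved in opposite directions (Aqp3 against Aqp9) or in the same direction beside each other (Aqp9 and Aldh1a2). Sequences are from RefSeq, build GRCm38.p6, 250 bases directly upstream of the annotated start site, 5′ to 3′ on the gene's strand. Capitals mark CG dinucleotides and the letters TATAAA. The build behind the array values is not given in the sources used here.
Aqp3, chr4:41098184-41098433, minus strand: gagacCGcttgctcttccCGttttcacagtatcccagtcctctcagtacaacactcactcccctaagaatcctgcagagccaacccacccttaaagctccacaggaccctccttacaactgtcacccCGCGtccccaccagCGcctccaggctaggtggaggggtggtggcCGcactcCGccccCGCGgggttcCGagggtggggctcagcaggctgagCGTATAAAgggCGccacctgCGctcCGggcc
Aqp9, chr9:71163290-71163539, minus strand, the first of 2 annotated windows: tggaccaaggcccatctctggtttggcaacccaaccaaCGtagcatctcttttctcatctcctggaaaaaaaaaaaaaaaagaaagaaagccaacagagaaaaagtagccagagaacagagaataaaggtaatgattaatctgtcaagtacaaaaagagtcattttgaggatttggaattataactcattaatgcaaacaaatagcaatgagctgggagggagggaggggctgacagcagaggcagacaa
Aldh1a2, chr9:71215539-71215788, plus strand: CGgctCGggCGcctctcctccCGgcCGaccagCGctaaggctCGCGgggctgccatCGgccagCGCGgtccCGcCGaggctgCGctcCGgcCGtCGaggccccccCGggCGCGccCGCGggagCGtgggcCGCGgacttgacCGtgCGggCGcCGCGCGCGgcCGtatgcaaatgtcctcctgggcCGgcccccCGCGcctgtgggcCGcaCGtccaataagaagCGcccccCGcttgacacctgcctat

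The Aqp3 stretch holds TATAAA, its first base 29 bases before the start site, 14 CG dinucleotides and 64% G or C. TATAAA on the gene's strand occurs in 8.32% of 32851 promoter windows of 300 bases. The Aqp9 stretch holds no TATAAA, 1 CG dinucleotide and 40.4% G or C, and that of Aldh1a2 holds 40 CG dinucleotides and 77.6% G or C, against medians of 6 CG dinucleotides and 52.4% G or C over all windows. Aqp9 and Aldh1a2 run away from each other on opposite strands, with start sites 52.5 kb apart. Windows were found for 9 of the 10 aquaporin genes, 11 windows in all. Receptor sites of 6 bases (AGGTCA, the consensus, its variant AGTTCA, a further variant GGGTCA, and the last one searched, GGTTCA, on either strand) lay in 5 of the 11 windows, those of Aqp5, Aqp6, Aqp11 and both of Aqp7, and in 43.7% of all windows. None lay in the windows of Aqp3, Aqp9 or Aldh1a2. Direct repeats of any of these sites, spaced by 5, 2 or 1 bases, searched on both strands, were in none of the 11 and in 0.0974%, 0.268% and 0.222% of all windows. These matches describe letters only.

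Aqp3 had 7.04 and 7.11 on the RA arrays, against 10.16 and 10.25 on the DMSO arrays (probe set 17424119). In linear intensity these are 131.8 and 138.4 with RA and 1145.1 and 1215.2 with DMSO. Both RA arrays lay below both DMSO arrays, and the arrays of each treatment differed by less than 0.09. The mean was 7.08 ± 0.05 with RA and 10.20 ± 0.06 with DMSO (SD, n = 2 each), a difference of -3.13 ± 0.08 (SE), or 8.74-fold lower with RA. Of 22180 genes, 9 had a lower difference. With any 1 array left out, the difference of Aqp3 stayed between -3.17 and -3.08.

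Aqp9, which takes glycerol into liver cells and is known from leukocytes, had 9.02 and 9.01 on the RA arrays, against 7.84 and 7.44 on the DMSO arrays (probe set 17528644). In linear intensity these are 518.9 and 514.0 with RA and 229.2 and 174.2 with DMSO. Both RA arrays lay above both DMSO arrays. The RA arrays lay 0.01 apart, whereas the DMSO arrays lay 0.40 apart, a larger gap than in 97.8% of genes, for which the median gap between DMSO arrays was 0.09. The mean was 9.01 ± 0.01 with RA and 7.64 ± 0.28 with DMSO (SD, n = 2 each), a difference of 1.37 ± 0.15 (SE), or 2.58-fold higher with RA. Of 22180 genes, 86 had a higher difference. The difference was 1.17 without DMSO replicate 2 and 1.57 without DMSO replicate 1, and 1.36 and 1.38 without RA replicate 1 and RA replicate 2. Aqp9 lay past the threshold in none of these 4 fits.

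**Figure D1:**
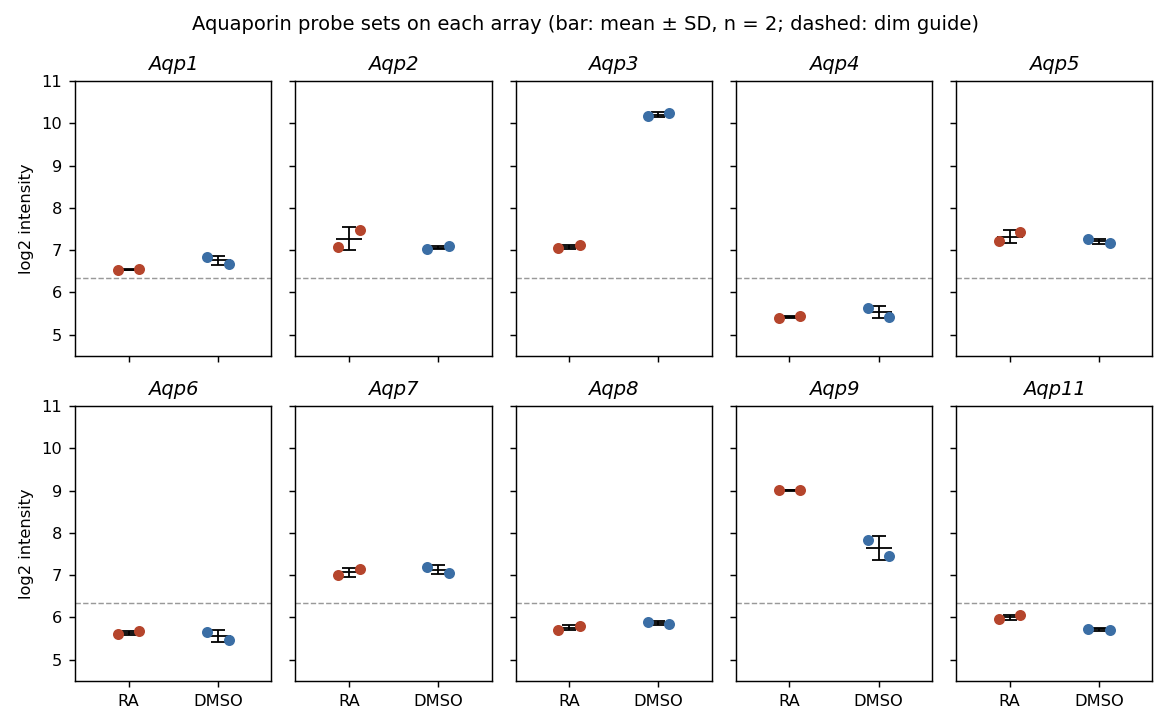
Log2 intensity of the probe set of each of the 10 aquaporin genes on the 2 RA arrays (red) and the 2 DMSO arrays (blue), with the mean and SD as black bars; the dashed line is the dim level of 6.35. Aqp3 sits at 7.04 and 7.11 with RA and at 10.16 and 10.25 with DMSO, Aqp9 at 9.02 and 9.01 with RA and at 7.84 and 7.44 with DMSO, and in the other panels the treatments lie within 0.28 of each other, with the RA arrays of Aqp2 0.39 apart.

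Aqp7, the third aquaglyceroporin, which lets glycerol leave fat cells, had 7.00 and 7.15 with RA, against 7.20 and 7.06 with DMSO. The arrays of the treatments overlapped. The difference was -0.06 ± 0.10 (SE), with an unadjusted limma 95% interval of -0.32 to 0.20. The aquaglyceroporins were thus lower (Aqp3), higher (Aqp9) and within the spread between arrays (Aqp7).

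Among the water-selective channels, Aqp1, which carries water across red cell and endothelial membranes, had 6.52 and 6.55 with RA, against 6.83 and 6.68 with DMSO. The RA arrays lay below the DMSO arrays, with a difference of -0.22 ± 0.09 (SE). Aqp2, the vasopressin-regulated channel of the kidney collecting duct, had 7.08 and 7.47 with RA, against 7.03 and 7.09 with DMSO, and the arrays overlapped. The gap of 0.39 between its RA arrays was larger than that of 97% of genes. Aqp5, the channel of salivary, lacrimal and sweat glands, had 7.21 and 7.42 with RA, against 7.25 and 7.17 with DMSO, and its arrays overlapped as well. Aqp2 and Aqp5 differed by 0.22 ± 0.15 and 0.10 ± 0.11 (SE). Without RA replicate 1 these differences were 0.41 and 0.21, and without RA replicate 2 they were 0.022 for Aqp2 and -0.0051 for Aqp5.

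In both groups 4 of the 10 aquaporin genes lay under the dim level, as did 41.1% of all genes, and RMA understates differences at such levels. Aqp4, the channel of astrocyte end feet, had 5.40 and 5.43 with RA, against 5.64 and 5.43 with DMSO. Aqp6, an intracellular channel of kidney, had 5.61 and 5.67 with RA, against 5.66 and 5.47 with DMSO. For both, the treatments overlapped. Aqp8, which passes water and hydrogen peroxide and is known from gut and liver, had 5.71 and 5.80 with RA, against 5.90 and 5.84 with DMSO, with the RA arrays below. Aqp11, a channel of the endoplasmic reticulum whose loss gives kidney cysts in mice, had 5.95 and 6.05 with RA, against 5.74 and 5.70 with DMSO, with the RA arrays above. Its difference of 0.28 ± 0.08 (SE) was the largest in size among the 8 genes not past the threshold, and its unadjusted 95% interval ran from 0.07 to 0.50. At these levels, no statement can be made on whether these 4 genes responded.

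Aqp3 and Aqp9, or 2 of the 10 genes, lay past the limma threshold (adjusted p under 0.05 over all probe sets), against 3.07% of all genes (1.28% higher and 1.79% lower with RA) and 2.09% of all probe sets. The arrays of the treatments did not overlap for 5 of the 10 genes (Aqp1, Aqp3, Aqp8, Aqp9 and Aqp11), against 48% of all genes. Since this contrast helped choose the set, nothing is read from either count. Every call given here, of aquaporins and of other genes, was made without the 1625 constant probe sets, none of which has a name. In a fit that holds them, 0 probe sets passed limma's threshold, Aqp3 and Aqp9 among those that missed it, although 6260 had an unadjusted p under 0.05 and the smallest adjusted p was 0.0535. The 10 genes had 5 positive and 5 negative differences with a median of 0.01, as had all genes (0.01). The split moves with single arrays: Aqp5 was -0.0051 without RA replicate 2, Aqp6 -0.019 without DMSO replicate 2, and Aqp7 0.017 without RA replicate 1 and 0.013 without DMSO replicate 1. The other 2 aquaporin genes on the array did not pass. Mip, the lens channel, had 7.76 and 7.81 with RA, against 7.72 and 7.68 with DMSO (0.09 ± 0.08, SE, limma adjusted p = 0.713), and its second probe set differed by -0.13 ± 0.09. Aqp12, known from pancreatic acinar cells, had 5.89 and 6.24 with RA, against 6.04 and 5.69 with DMSO (0.20 ± 0.17, adjusted p = 0.71).

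**Figure D2:**
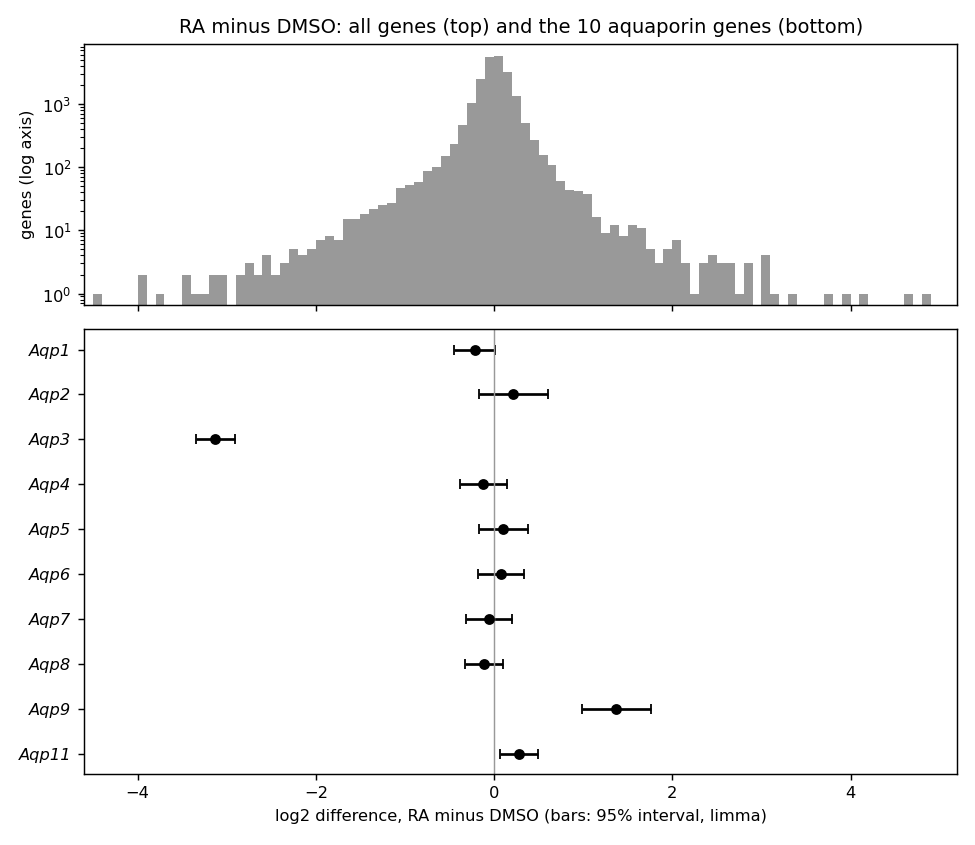
Log2 difference, RA minus DMSO, with the number of genes per 0.1 on a log axis for all 22180 genes (top) and each of the 10 aquaporin genes with its unadjusted limma 95% interval (bottom). Aqp3 at -3.13 lies in the lower tail and Aqp9 at 1.37 in the upper tail, while the other 8 genes lie within 0.28 of 0.

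Genes beside the aquaporins were compared next. Aqp3 and Aqp7 lie close together on chromosome 4 on the same strand, with start sites 50.0 kb apart. Aqp3 was 8.74-fold lower with RA and Aqp7 differed by -0.06. On the far side of Aqp3, Nol6, a nucleolar protein gene, had 10.71 and 10.78 with RA, against 10.79 and 10.89 with DMSO (-0.10 ± 0.08, SE, limma adjusted p = 0.701). The ubiquitin-conjugating enzyme gene Ube2r2 (0.09 ± 0.08), Ubap2 (-0.10 ± 0.12), Nfx1 (-0.03 ± 0.08), the microRNA gene Mir3094 (-0.12 ± 0.28, under the dim level) and, 1 further out on the side of Aqp7, Chmp5 (-0.10 ± 0.08) did not pass either. Their adjusted p ran from 0.669 to 0.910.

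Around Aqp9 on chromosome 9, Aldh1a2, which encodes an enzyme that makes retinoic acid, had 11.17 and 11.13 with RA, against 7.28 and 7.21 with DMSO. Its difference was 3.91 ± 0.08 (SE, limma adjusted p = 0.00172), beside 1.37 for Aqp9. It is the nearest measured gene on that side, with 3 annotated genes not analysed here in between. On the other side the nearest measured gene, the protease gene Adam10, had 11.67 and 11.72 with RA, against 11.35 and 11.46 with DMSO (0.29 ± 0.08, adjusted p = 0.246), and 9 annotated genes not analysed here lie between. Mindy2 (0.05 ± 0.08), Sltm (-0.04 ± 0.08), Polr2m (0.07 ± 0.08) and Myzap (0.04 ± 0.09) did not pass. Of these neighbours, Aldh1a2 alone passed, in the fit as reported. Aqp9 was chosen for its place beside Aldh1a2, already known to be higher with RA in these data. That a neighbour of Aqp9 passed was thus set by the choice, and nothing is read from it.

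**Figure D3:**
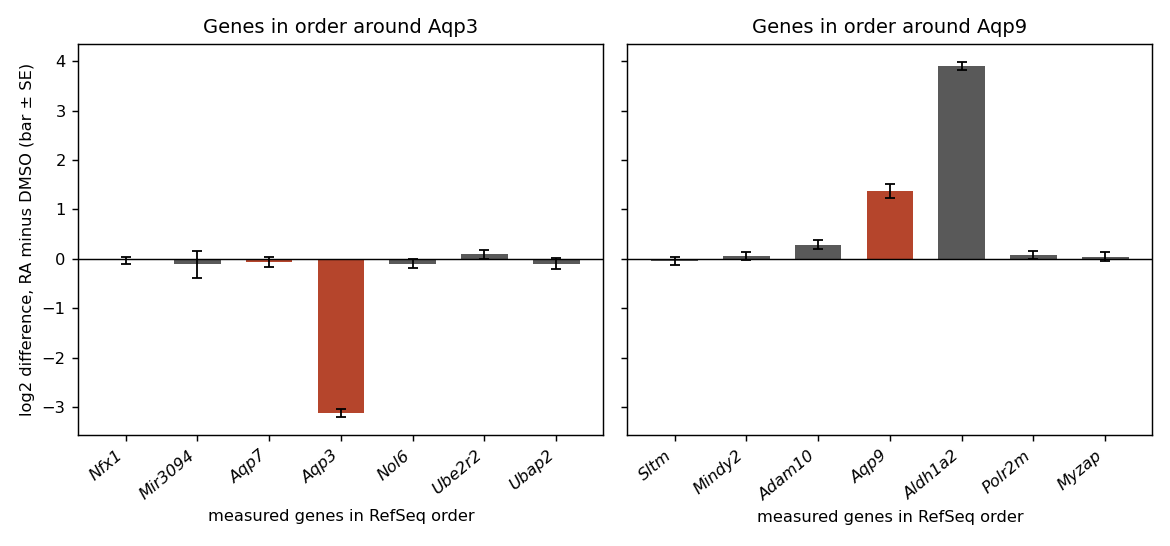
Log2 difference, RA minus DMSO, with limma's SE for the 3 nearest measured genes on each side of Aqp3 (left) and Aqp9 (right), in RefSeq order; aquaporin genes are red. Aqp3 at -3.13 stands alone on the left, and Aqp9 at 1.37 stands beside Aldh1a2 at 3.91 on the right.

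The genes whose centred values over the 4 arrays lay nearest to those of Aqp3 (Euclidean distance in log2 units) were Scimp (0.17), Gfra2 (0.22), P2ry10b (0.30), Ms4a4a (0.31) and F2rl2 (0.33). Scimp, an adaptor at MHC class II, had 7.67 and 7.66 with RA, against 10.88 and 10.74 with DMSO. Nearest to Aqp9 were Abi3 (0.10), Tent5a (0.13), Gimap5 (0.15), Gpr55 (0.16) and Hivep2 (0.17). Abi3, an actin regulator of the WAVE complex, had 8.75 and 8.78 with RA, against 7.56 and 7.30 with DMSO. With 4 arrays these distances mostly rank genes by the size of the same difference.

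Genes that make, use or carry the solutes of these channels, or that handle cell volume and fluid uptake, were then read from 6 lists. Of 21 measured genes of glycerol release, uptake and phosphorylation, 1 rose and 20 did not pass, with a median difference of -0.02. Mgll, the lipase that frees glycerol from monoglycerides, had 9.63 and 9.58 with RA, against 8.89 and 8.90 with DMSO, and rose 1.64-fold (limma adjusted p = 0.0261). Lpl, the lipoprotein lipase, had 13.34 and 13.31 with RA, against 13.40 and 13.35 with DMSO (adjusted p = 0.849), and the lysosomal lipase gene Lipa differed by -0.03 ± 0.09 (SE, adjusted p = 0.917). The 20 ran from -0.55 to 0.26.

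Of 26 measured genes of osmotic stress and cell volume, 3 fell and 23 did not pass, with a median of -0.04. Trpv2, a cation channel of leukocyte membranes, had 8.93 and 8.96 with RA, against 10.39 and 10.33 with DMSO, and was 2.67-fold lower (limma adjusted p = 0.00615). Kcnn4, the calcium-activated potassium channel that takes part in volume loss, had 10.34 and 10.37 with RA, against 11.06 and 11.13 with DMSO, and was 1.67-fold lower (adjusted p = 0.0249). Clic4, of the chloride intracellular channel family, had 11.09 and 11.18 with RA, against 11.85 and 11.87 with DMSO, and was 1.66-fold lower (adjusted p = 0.0282). The taurine transporter gene Slc6a6 (0.25 ± 0.09, SE, adjusted p = 0.348) and the kinase gene Wnk1 (0.12 ± 0.08, adjusted p = 0.621), both known from the response to osmotic stress or volume, did not pass. The 23 that did not pass ran from -0.49 to 0.74.

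Of 7 other carriers and enzymes for aquaporin solutes, 1 rose. As3mt, which methylates arsenite, a solute that Aqp9 carries, had 9.40 and 9.29 with RA, against 8.57 and 8.70 with DMSO, and rose 1.64-fold (limma adjusted p = 0.0414). The lactate carrier gene Slc16a1 differed by -0.10 ± 0.08 (SE, adjusted p = 0.663) and its partner Bsg by 0.03 ± 0.09 (adjusted p = 0.934). The 6 that did not pass ran from -0.14 to 0.59, the highest being a further lactate carrier gene, Slc16a7. Of 14 measured genes of macropinocytosis and fluid uptake, 0 passed (limma; 3 had an unadjusted p under 0.05), with a median of -0.10. The GTPase genes Rac2 and Cdc42 differed by 0.02 ± 0.08 and -0.10 ± 0.08 (SE).

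Of 15 genes tied to the control or trafficking of aquaporins, 1 rose, 1 fell and 13 did not pass, with a median of -0.06. Hif1a, the oxygen-regulated transcription factor, had 11.93 and 11.79 with RA, against 10.34 and 10.27 with DMSO, and rose 2.93-fold (limma adjusted p = 0.00646). Rxra, the partner of the RA receptors and of other nuclear receptors, had 7.60 and 7.83 with RA, against 8.99 and 9.32 with DMSO, and was 2.71-fold lower (adjusted p = 0.0242). Ezr, a linker of membrane proteins to actin, differed by -0.28 ± 0.09 (SE, adjusted p = 0.294) and the protein kinase A gene Prkaca by -0.15 ± 0.08 (adjusted p = 0.501). Over the lists of these other genes, 3 of 85 rose and 4 fell, beside 1.28% and 1.79% of all genes. Few list genes but 41.1% of all genes lay under the dim level in both groups. The shares are therefore not those of equally bright genes, and no excess of calls is read from them. None of the 7 passed when any 1 array was left out.

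**Figure D4:**
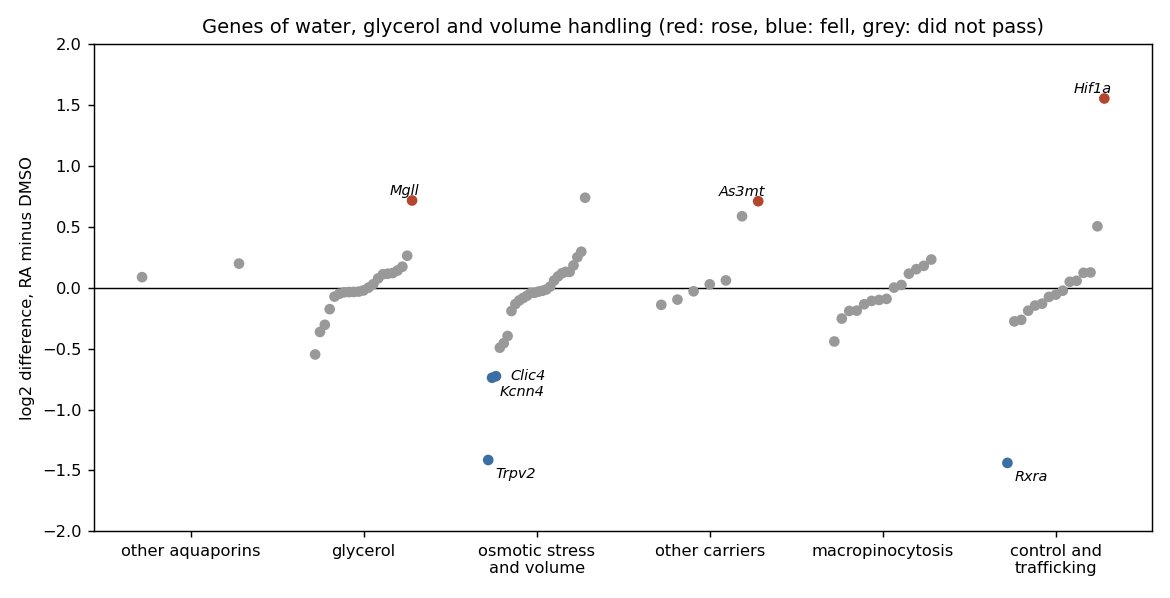
Log2 difference, RA minus DMSO, of each of the 85 measured genes in 6 lists of other aquaporins, glycerol, volume, carrier, macropinocytosis and control genes; red genes rose, blue genes fell and grey genes did not pass limma's threshold. Most points lie near 0, with Hif1a at 1.55 highest and Rxra at -1.44 and Trpv2 at -1.41 lowest.

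Markers of other bone marrow cells that carry aquaporins were read beside these values. Of 9 measured erythroid markers, whose cells carry Aqp1 and Aqp3, 0 passed (limma; 1 had an unadjusted p under 0.05) and 6 lay under the dim level in both groups, and their summed linear intensity was 573.8 to 640.8 on RA arrays and 566.4 to 571.1 on DMSO arrays. Of 12 endothelial and stromal markers, 0 passed (limma; 0 had an unadjusted p under 0.05). Of 15 neutrophil markers, whose cells carry Aqp9, Mmp9 (1.01 ± 0.14, SE, adjusted p = 0.0494) and Retnlg (1.06 ± 0.11, adjusted p = 0.0227, under the dim level) rose, Cxcr2 fell (-1.15 ± 0.10, adjusted p = 0.0167) and 12 did not pass. Their summed intensity was 21164 to 22255 on RA arrays and 21473 to 21554 on DMSO arrays. Ly6g, the defining surface marker of mouse neutrophils, was picked after seeing data and had 6.66 and 6.18 with RA, against 6.26 and 6.40 with DMSO. Its values lay on both sides of the dim level, so Ly6g cannot show whether neutrophils were present or changed. Of the 15 neutrophil markers, 14, Ly6g among them, lay above the dim level in at least 1 group. Of 10 lymphoid markers Cd79b rose (0.65 ± 0.09, adjusted p = 0.0471), and of 10 mast cell, basophil and eosinophil markers Siglecf rose (0.61 ± 0.08, adjusted p = 0.0488). None of these 5 genes passed with any 1 array left out. Summed intensities were 922.3 to 937.0 with RA and 803.8 to 813.9 with DMSO for the lymphoid list. For the mast cell, basophil and eosinophil list they were 923.7 to 954.6 with RA and 808.0 to 829.4 with DMSO. In both lists the sums of the RA arrays lay above those of the DMSO arrays, as in the erythroid and monocyte lists. Median differences were 0.12 for the lymphoid list and -0.06 for the mast cell, basophil and eosinophil list. The brightest gene of the latter was Siglecf (8.58 and 8.66 with RA, 7.97 and 8.06 with DMSO), so its higher sum was not a rise across its genes. Sums of the endothelial and stromal list were 1214.4 to 1309.3 with RA and 1177.8 to 1225.5 with DMSO, and these ranges overlapped. The part of any of these cells in the Aqp3 and Aqp9 differences was not tested.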

How the data were processed

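Each probe set has 1 linear intensity on each array, as the authors deposited it, made with RMA in Affymetrix Expression Console, per the submitters' processing notes. RMA corrects background, equalises probe distributions and summarises probes. Versions and a genome build are not given in the sources used here. Values were taken to log2 and not normalized again. Of 41345 probe sets, 1625 without an annotated gene held 1 constant value each on all arrays and were left out. Keeping them lowers limma's prior degrees of freedom to 0.898, against 2.76. The other 39720 were fitted with limma 3.58.1 in R 4.3.3 (lmFit, eBayes, 2 arrays against 2, no covariates, two-sided), with Benjamini-Hochberg adjustment over all of them, a threshold of 0.05 and limma's moderated standard errors. The smallest p of an exact permutation test in this design is 0.333.

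Names came from the platform annotation (23521 probe sets with 1 symbol, 1814 with several, 16010 unnamed). A gene is represented by its brightest probe set, and each of the 10 aquaporin genes has 1. All were in the fit. Promoters and gene order came from RefSeq. The aquaporin genes, the lists and the alternatives were chosen with earlier results of these data known. Named genes were the aquaporins, list genes that passed with up to 2 per list that did not, 3 measured neighbours on each side and the 5 nearest genes by distance. The search for TATAAA, the count of CG dinucleotides, Ly6g and the dim level were chosen after seeing data. No protein sequences were used here, so a planned comparison of them was not run. The limma step was tested on simulated data.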

Additional observations from a re-analysis of the deposited data

How the results depend on the processing

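With any 1 array left out, 12 to 30 probe sets were higher and 13 to 25 lower with RA, 1 aquaporin (Aqp3) lay past the threshold, and 0 list genes rose or fell. The lone array of a group is then assumed to vary as the pair does. The differences stayed between -3.17 and -3.08 for Aqp3 and between 1.17 and 1.57 for Aqp9. With the constant probe sets kept, limma called 0 probe sets (6260 at an unadjusted p under 0.05), 0 higher and 0 lower, 0 aquaporins, 0 list genes and 0 neighbours; the smallest adjusted p was 0.0535. With the replicate number as a block, 73 were higher and 88 lower, 1 aquaporin (Aqp3) passed, and 1 list gene (Hif1a) rose and 2 (Trpv2, Rxra) fell. The deviations of same-numbered arrays correlated at -0.25, which gives no sign that equal numbers pair the arrays, and the labels do not say what a number stands for. A crossed pairing, added after seeing the data, gave 194 higher and 263 lower. With only single-symbol probe sets, 757 were higher and 879 lower, and 5 list genes rose and 8 fell. With only probe sets above the median, 545 were higher and 671 lower, against 359 higher and 472 lower as reported. Signs turned for values near 0. With 1 array left out, Aqp5 lay between -0.0051 and 0.21, Aqp6 between -0.019 and 0.17 and Aqp7 between -0.13 and 0.017. Mir3094 differed by 0.0019 with the dim floor and by -0.47 to 0.24 with 1 array left out, Bsg by -0.027 to 0.083, Lipa by -0.087 to 0.018, Myzap by -0.032 to 0.121, Rac2 by -0.0075 to 0.052 and Ubap2 by -0.206 to 0.0074. The causes were not tested. Aqp4, Aqp6, Aqp8 and Aqp11 have no value with the dim floor or above the median.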
